A study of Mus musculus with 6 samples.

Results

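AP-1 is a transcription factor made of pairs of basic leucine zipper (bZIP) proteins. The 10 genes described here were selected by name, with earlier results of these data known. They were the FOS family (FOS, FOSB, FOSL1 and FOSL2), the JUN family (JUN, JUNB and JUND) and the immediate early genes EGR1, IER2 and IER3. Each name was found on 1 of the 31456 rows of the deposited read count table. All 10 genes passed the filter on low counts that left 16605 genes for testing.

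RNA sequencing was done on HCT116, an established human colorectal carcinoma line, in a parental form and an oxaliplatin-resistant form, with 3 libraries of each. Oxaliplatin is a platinum drug that damages DNA. The labels gave no genetic change, drug exposure at harvest, culture time or passage for either group, nor whether the resistant cells came from 1 clone. Whether the libraries of a group were separate cultures was also not stated, and the p-values reflect only how far these libraries differ, which may be technical.

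FOS proteins bind DNA only when paired with a JUN protein or another bZIP protein, whereas JUN proteins can also pair with each other. Immediate early genes are transcribed within minutes of a growth factor or stress signal without new protein synthesis. In many of them serum response factor (SRF) and its ternary complex factors receive the ERK signal, while the JNK kinases phosphorylate JUN itself.

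Library totals ranged from 20246878 to 32138423 counts. No replicates agreed within sampling noise, for which the chi-square per gene would be close to 1. It was 10.1 and 10.4 where parental replicate 2 was compared with the others of its group and 1.96 to 4.21 for the remaining pairs. Results that changed without that library are given below. The labels named the organism as mouse, but 30616 rows carried human Ensembl identifiers. The epithelial markers EPCAM, KRT8, KRT18 and KRT19 were abundant in both groups (for KRT8, 1385 and 1231 CPM, read counts scaled to library size). Of the intestinal markers, the transcription factor gene CDX2 was present at 11.0 and 10.3 CPM (234 to 302 counts per library), whereas VIL1, at 0 to 4 counts, and KRT20, at 7 to 25, were scarce. Of 9 measured markers of fibroblasts, immune and endothelial cells, DCN, LUM, PTPRC, CD3E, CDH5 and COL1A2 had at most 2 counts in any library. COL3A1 had 1, 1 and 0 counts in parental replicates 1, 2 and 3 against 5, 11 and 9 in resistant replicates 1, 2 and 3. The summed level of the 9 markers was 35.0 to 38.9 CPM in parental and 54.2 to 61.1 CPM in resistant libraries, nearly all of it from COL1A1 and CD68. Their part in the results below was not tested.

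Of the 10 genes 3 were higher in the resistant cells (JUN, FOSL2 and FOSL1), 4 were lower (IER3, EGR1, FOS and JUNB) and 3 did not pass the threshold (FOSB, JUND and IER2). A gene was called at an adjusted p under 0.05 by the quasi-likelihood test of edgeR over all 16605 genes. At that threshold 53.8% of the genes passed, 27.3% higher and 26.5% lower. Without normalization factors, on library sizes alone, 65.3% of the called genes were higher, against 50.8% with the factors. The 10 genes kept the counts of 3 higher and 4 lower in that setting. The 7 called genes were those in which the groups did not overlap, and 61.2% of all tested genes showed such separation. JUN, IER3, EGR1 and FOSL2 changed at least 1.5-fold, as did 18.5% of all tested genes. The median log2 fold change of the 10 genes was -0.04, beside 0.02 for all tested genes. In bulk RNA, fewer expressing cells and less RNA per cell cannot be told apart.

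**Figure D1:**
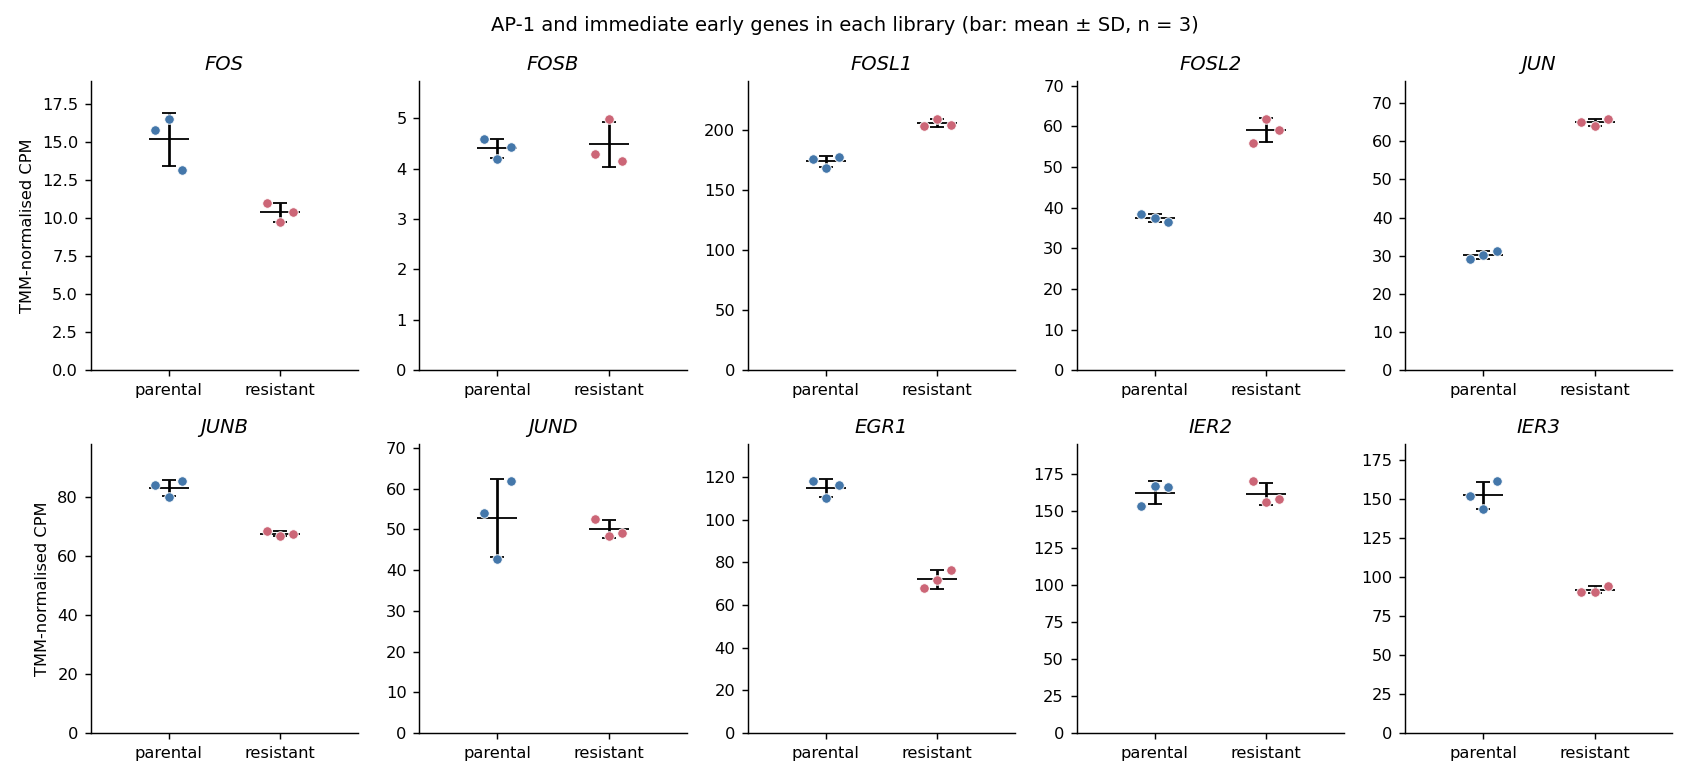
Each panel plots 1 gene, with TMM-normalised CPM on a linear axis from 0, a point for each of the 6 libraries and a bar for the mean ± SD of 3. JUN rises from about 30.2 to 65.0 CPM with no overlap between the groups, while FOSB, JUND and IER2 overlap.

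JUN (ENSG00000177606.6), the founding JUN subunit and the substrate that gave the JNK kinases their name, had the largest change of the 10. Its level, as CPM with the library scaling factors of the TMM method, was 29.1, 30.3 and 31.3 CPM in parental replicates 1, 2 and 3. In resistant replicates 1, 2 and 3 it was 65.1, 64.0 and 65.9 CPM. Every resistant library was thus above every parental library, and the libraries within a group were close together. JUN was 2.15-fold higher in the resistant cells, with a log2 fold change of 1.11 ± 0.05 (SE) and an edgeR adjusted p of 8.4e-09. Of all tested genes 92.9% had a smaller absolute log2 fold change.

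JUNB (ENSG00000171223.6), a subunit that is a weaker activator than JUN on many AP-1 sites, moved the other way. Parental replicates 1 to 3 had 84.0, 79.9 and 85.2 CPM of JUNB, and resistant replicates 1 to 3 had 68.5, 66.8 and 67.2 CPM. The groups did not overlap, although the fall was small. The JUNB log2 fold change was -0.30 ± 0.05 (SE), a 1.23-fold lower level (edgeR adjusted p = 2.1e-04).

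JUND (ENSG00000130522.5), the JUN subunit that is expressed steadily in many resting cells, did not pass the threshold. Its parental libraries ranged widely, with 53.9, 42.7 and 61.8 CPM in replicates 1, 2 and 3. The resistant libraries lay inside that range, at 52.6, 48.5 and 49.2 CPM. The log2 fold change of JUND was -0.07, with a 95% interval of -0.35 to 0.22 and an edgeR adjusted p of 0.67. Without parental replicate 2, the lowest of the 6, JUND passed the threshold at a log2 fold change of -0.20 (edgeR adjusted p = 0.010, in a range of 0.010 to 0.89 over its alternatives).

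FOSL1 (ENSG00000175592.8) encodes FRA-1, a FOS family protein without the transactivation domain of FOS that accumulates under sustained ERK signalling. Its transcript had the highest CPM of the 7 AP-1 subunits in every library. It stood at 176, 169 and 177 CPM in parental replicates 1, 2 and 3 against 203, 209 and 204 CPM in resistant replicates 1, 2 and 3. The rise was small beside the level, but the groups did not overlap. FOSL1 was 1.18-fold higher in the resistant cells (log2 fold change 0.24 ± 0.04 SE, edgeR adjusted p = 5.1e-04), and 46.1% of all tested genes had a smaller absolute log2 fold change.

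FOSL2 (ENSG00000075426.12), which encodes the related protein FRA-2, rose more in relative terms. The FOSL2 level was 38.4, 37.5 and 36.6 CPM in the parental replicates 1 to 3 and 56.0, 61.8 and 59.2 CPM in the resistant ones. Each resistant library exceeded each parental library by a wide margin. The log2 fold change was 0.65 ± 0.05 (SE), a 1.57-fold higher level, with an edgeR adjusted p of 1.4e-06.

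FOS (ENSG00000170345.10), the classical immediate early subunit whose mRNA is made in short bursts and decays fast, fell. It had 15.8, 16.5 and 13.2 CPM in parental replicates 1, 2 and 3 against 11.0, 9.74 and 10.4 CPM in resistant replicates 1, 2 and 3. These levels rested on 259 to 509 counts per library, and the groups did not overlap. FOS was 1.47-fold lower (log2 fold change -0.56 ± 0.09 SE, edgeR adjusted p = 3.6e-04).

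FOSB (ENSG00000125740.14), the subunit whose truncated splice form persists after repeated stimulation in rodent neurons, was the scarcest of the 10, at 87 to 146 counts per library. Parental replicates 1, 2 and 3 had 4.58, 4.19 and 4.43 CPM, and resistant replicates 1, 2 and 3 had 4.30, 4.99 and 4.16 CPM. The groups overlapped fully. Its log2 fold change on counts was 0.03, with a 95% interval of -0.24 to 0.30 (edgeR adjusted p = 0.85). On the deposited normalized values, taken as FPKM (fragments per length of transcript and per library size), FOSB was higher in the resistant cells, as described with those values below.

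The balance of subunits was taken from the FPKM, since levels of different genes can be compared only per length. These shares describe the 7 transcripts chosen by name and carry no test. They count RNA and not protein or dimers. In each library FOSL1 made up most of the FOS family. The FOSL1 share of FOS family FPKM was 88.9%, 87.8% and 89.3% in parental replicates 1, 2 and 3 against 89.9%, 90.4% and 89.9% in resistant replicates 1, 2 and 3. It therefore stayed near 9 in 10 in both forms, with the resistant libraries slightly above the parental ones.

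The minor FOS family members changed places on FPKM. The FOS share of the family was 6.16%, 7.37% and 6.02% in parental replicates 1, 2 and 3 against 4.02%, 3.17% and 3.69% in resistant replicates 1, 2 and 3. The FOSL2 share was 3.75% ± 0.128 in the parental and 5.15% ± 0.230 in the resistant libraries (SD, n = 3). On FPKM FOS was thus the second FOS family transcript in the parental form and FOSL2 in the resistant form, in every library. On CPM, which are not scaled to length, FOSL2 stood above FOS in both forms, with FOS at 6.57% and 3.72% and FOSL2 at 16.2% and 21.1% of the family. The FPKM ratio of FOSL1 to FOS went from 13.7 ± 1.58 to 25.1 ± 3.14 (SD, n = 3).

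Within the JUN family the composition changed on both scales. The JUN share of JUN family FPKM was 7.34%, 7.75% and 7.45% in parental replicates 1, 2 and 3. It was 16.4%, 17.3% and 17.6% in resistant replicates 1, 2 and 3, more than double the parental share in every library. JUNB went from 44.3% ± 0.942 to 37.9% ± 0.980 and JUND from 48.2% ± 0.856 to 45.0% ± 1.61 of the family (SD, n = 3). JUND was the leading JUN family transcript and JUN the scarcest in all 6 libraries on this scale. On CPM, which are not scaled to length, JUNB led in all 6 libraries, with 50.1% in the parental and 37.0% in the resistant form. JUN then stood above JUND in every resistant library, at 35.6% against 27.4% on average. The FPKM ratio of JUN to JUNB was 0.170 ± 0.00728 in the parental and 0.451 ± 0.00744 in the resistant libraries (SD, n = 3).

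**Figure D2:**
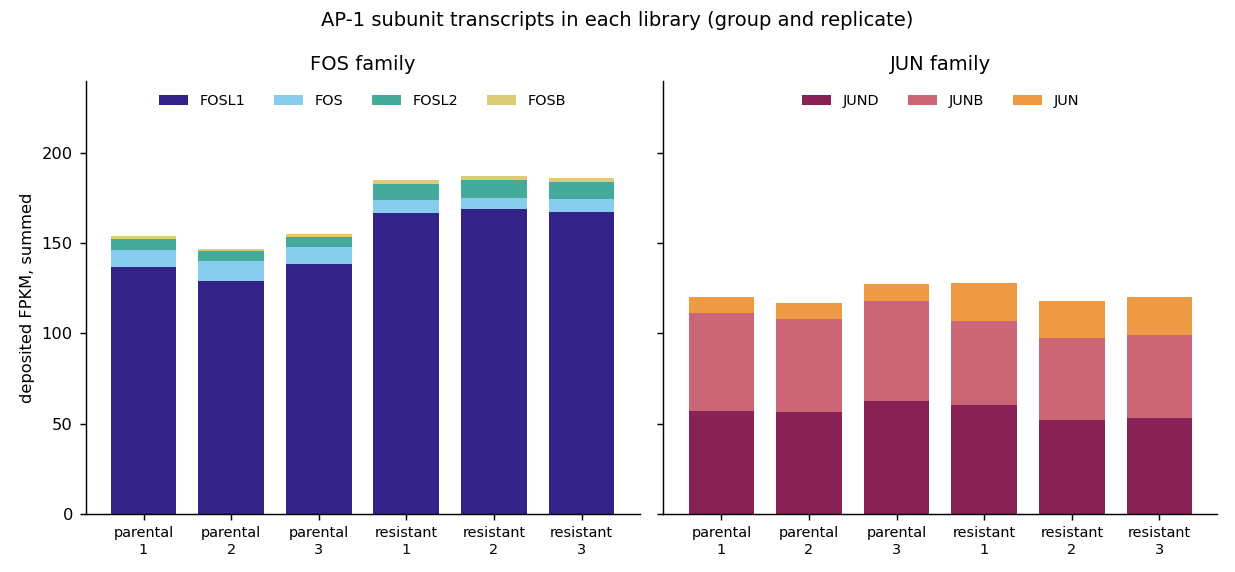
Stacked bars give the deposited FPKM of the FOS family (left) and JUN family (right) in each of the 6 libraries, named by group and replicate, on a linear axis from 0. The FOS family bars are taller in the resistant libraries (185 to 187 against 147 to 155), and the JUN segment widens at a JUN family FPKM total that overlaps between the groups.

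The summed FPKM of the FOS family was 154, 147 and 155 in parental replicates 1, 2 and 3 against 185, 187 and 186 in resistant replicates 1, 2 and 3. Most of the difference lay in FOSL1, whose mean rose from 135 ± 5.05 to 168 ± 1.37 FPKM (SD, n = 3). The summed FPKM of the JUN family was 122 ± 5.42 in the parental and 122 ± 5.36 in the resistant libraries (SD, n = 3), with overlapping groups. On CPM the JUN family sum was 167, 153 and 178 in parental replicates 1, 2 and 3 against 186, 179 and 182 in resistant replicates 1, 2 and 3. The resistant libraries were thus all higher on CPM, so whether the JUN family totals overlapped depended on the table. The FOS family share of all 7 subunits on FPKM was 55.6% ± 0.637 in the parental and 60.4% ± 1.17 in the resistant form (SD, n = 3). On CPM that share was 58.2% ± 1.63 and 60.5% ± 0.954 and the groups overlapped. The JUN share of its family was 18.2% and 35.6% on CPM, again about double.

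EGR1 (ENSG00000120738.8), a zinc finger transcription factor and a standard readout of ERK and SRF activity, fell. The parental replicates 1, 2 and 3 had 118, 110.2 and 116 CPM of EGR1, against 67.8, 71.8 and 76.4 CPM in the resistant replicates 1, 2 and 3. The highest resistant library was well below the lowest parental one. EGR1 was 1.59-fold lower, with a log2 fold change of -0.67 ± 0.05 (SE) and an edgeR adjusted p of 9.0e-07.

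IER3 (ENSG00000137331.12), an immediate early gene whose protein affects survival and ERK signalling, fell by a like amount. Its level was 152, 144 and 161 CPM in parental replicates 1 to 3 and 90.6, 90.3 and 94.4 CPM in resistant replicates 1 to 3. The groups were far apart. IER3 was 1.66-fold lower (log2 fold change -0.73 ± 0.05 SE, edgeR adjusted p = 2.9e-07). No other of the 10 genes fell as far.

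IER2 (ENSG00000160888.7), which encodes a nuclear immediate early protein, was abundant and overlapped between the forms. Parental replicates 1, 2 and 3 had 153, 167 and 166 CPM and resistant replicates 1, 2 and 3 had 169.8, 156 and 158 CPM. The IER2 log2 fold change was -0.01, with a 95% interval of -0.12 to 0.11 (edgeR adjusted p = 0.92), and its sign changed between alternatives.

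On the length-scaled FPKM the order of the 10 genes also differed between the forms. In the parental libraries it ran IER3 (164 ± 10.5 FPKM), FOSL1, IER2, JUND, JUNB, EGR1, FOS (9.89 ± 0.823), JUN (9.13 ± 0.339), FOSL2 and FOSB (1.62 ± 0.179), with SD over n = 3. FOS and JUN, neighbours in that order, overlapped. In the resistant libraries FOSL1 led at 168 ± 1.37 FPKM and IER3 followed at 103 ± 2.72. JUN (20.9 ± 0.368) and FOSL2 (9.60 ± 0.481) then stood above FOS (6.75 ± 0.763), with SD over n = 3 and without overlap between these 3 genes.

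The 2 deposited tables did not give the same picture for every gene. For 7 of the genes the FPKM of a library divided by its CPM was nearly constant, with the highest library at most 1.03 times the lowest. For FOSB, JUND and FOS the highest was 1.52, 1.32 and 1.24 times the lowest. Of 8644 genes with a mean of at least 500 counts, 10.6% reached 1.3 times or more. The FPKM were therefore not a fixed rescaling of the counts for those 3 genes.

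The FOSB difference between tables lay mainly in which libraries gained. FOSB had 1.73, 1.41 and 1.71 FPKM in parental replicates 1, 2 and 3 against 2.17, 2.09 and 2.29 FPKM in resistant replicates 1, 2 and 3, with no overlap. The difference on log2(FPKM + 1) was 0.28 ± 0.08 (SE) with a limma adjusted p of 0.029, in a range of 0.029 to 0.98 over its alternatives. On counts the same libraries overlapped, so the FOSB call depended on the table. For JUND the library apart was parental replicate 2, at 1.38 FPKM per CPM against 1.04 to 1.10 in the others. JUND therefore had 56.9, 56.4 and 62.5 FPKM in parental replicates 1, 2 and 3, without the low value seen on counts, and did not pass on log2(FPKM + 1) either (limma adjusted p = 0.33).

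**Figure D3:**
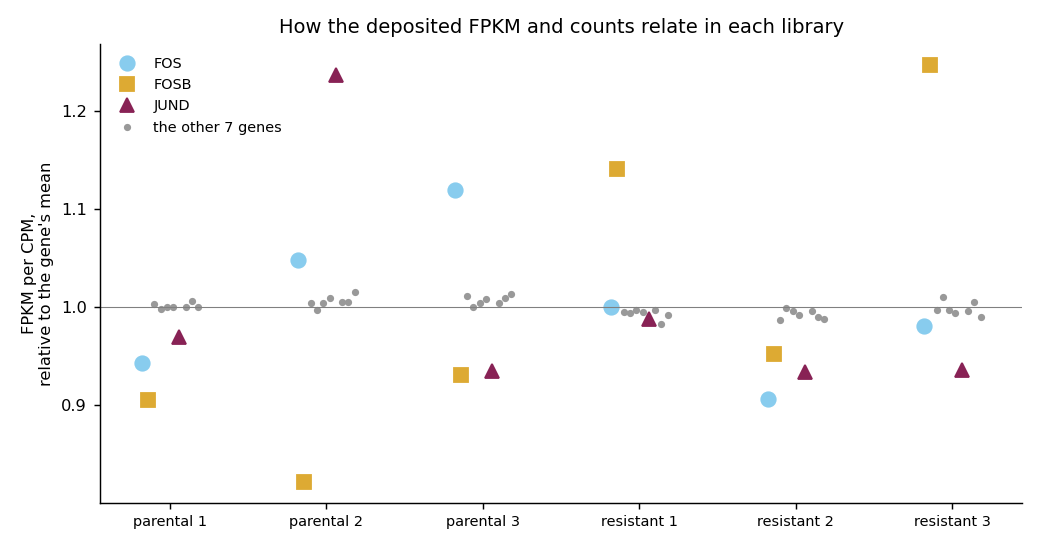
The vertical axis is FPKM divided by CPM (library totals, no factors) in each library, relative to the gene's mean over the 6 libraries; the horizontal axis lists the libraries, and each point is a gene. FOSB is highest in resistant replicates 1 and 3, JUND in parental replicate 2 and FOS in parental replicate 3, while the remaining 7 genes lie close to 1.

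**Figure D4:**
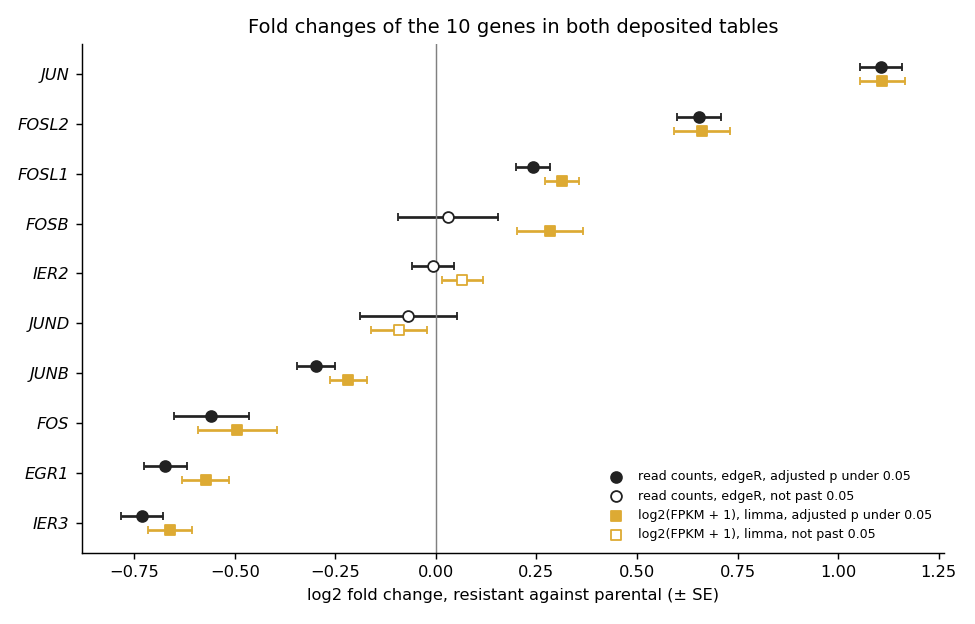
Log2 fold changes (resistant against parental, ± SE) of the 10 genes are plotted from read counts with edgeR (circles) and from log2(FPKM + 1) with limma (squares), filled where the adjusted p was under 0.05. Both tables give the same direction and call for every gene but FOSB and IER2, from JUN at 1.11 to IER3 at -0.73 on counts. FOSB is called on FPKM but not on counts, and IER2, called on neither, changes sign.

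Genes around AP-1 were followed in 5 lists, likewise chosen with earlier results known, with 101 symbols, of which 91 were tested. Altogether 37 of these rose and 29 fell by edgeR's test, where 27.3% of all tested genes were higher and 26.5% lower. The background shares given here and for each list below were not matched to the lists for read count. On library sizes alone 44 of the 91 genes were higher and 23 lower, where 65.3% of the 9081 genes called over the whole table were higher. With limma on log2 of FPKM 35 were higher and 19 lower, and over all genes calls then numbered 6885 in place of 8933 with 59.7% of them higher, on the + 1 scale.

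Other immediate early genes changed in both directions. Of 26 tested genes 9 were higher, 11 lower and 6 did not pass (76.9% called, beside 53.8% of all tested genes), with a median log2 fold change of -0.05. SGK1, a serum- and glucocorticoid-induced kinase gene, rose 4.31-fold from 5.12 ± 0.287 to 22.2 ± 0.894 CPM (SD, n = 3; edgeR adjusted p = 1.1e-09). ZFP36L1, which encodes a protein that promotes decay of AU-rich mRNAs, rose 2.55-fold, from 116 ± 10.9 to 295 ± 9.62 CPM. TRIB1, a pseudokinase gene, fell 1.84-fold from 267 ± 2.42 to 145 ± 5.76 CPM. The orphan nuclear receptor gene NR4A2 fell 1.95-fold from 21.9 ± 0.992 to 11.3 ± 0.190 CPM (edgeR adjusted p = 1.9e-07).

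The relatives of the selected genes within that list were looked at after their values were known. EGR2, a zinc finger factor gene of the EGR1 family, was higher at 2.03 ± 0.206 against 1.22 ± 0.0404 CPM (edgeR adjusted p = 0.0042). EGR3 was lower at 0.782 ± 0.192 against 1.44 ± 0.241 CPM (edgeR adjusted p = 0.0086, and 0.0025 to 0.25 among the alternatives, the highest by limma on log2(FPKM + 1)), and EGR4, with 1 to 7 counts per library, was not tested. Both EGR2 and EGR3 rested on 66 counts or fewer in any library, far below EGR1. IER5 and IER5L, which share a protein family with IER2, rose 1.47-fold and 1.29-fold (edgeR adjusted p = 1.5e-05 and 3.1e-04).

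Other bZIP genes, whose proteins can pair with AP-1 subunits or bind related sites, moved in both directions as well. Of 17 tested genes 10 rose, 4 fell and 3 did not pass (82.4% called, beside 53.8% of all), with a median log2 fold change of 0.21. DDIT3 (CHOP), a stress-induced factor that pairs with C/EBP proteins, rose 2.51-fold from 15.3 ± 0.866 to 38.5 ± 1.95 CPM (SD, n = 3; edgeR adjusted p = 1.4e-08). JDP2, which pairs with JUN and represses AP-1 sites, rose 1.78-fold from 11.2 ± 0.386 to 19.9 ± 0.663 CPM. The small MAF gene MAFG rose 1.51-fold, and ATF5 fell 1.45-fold. ATF3, a stress-induced partner of JUN named after its values were seen, rose 1.69-fold from 29.8 ± 1.89 to 50.4 ± 0.687 CPM (edgeR adjusted p = 6.6e-07); it was listed with the immediate early genes.

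Among kinases and ligases that act on AP-1 subunits 7 of 22 tested genes rose, 5 fell and 10 did not pass, with a median log2 fold change of 0.10. The share called, 54.5%, was close to that of the background, 53.8%. In this list 1 called gene reached 1.5-fold, as did 18.5% of all tested genes. Such genes numbered 12 of 26 other immediate early genes, 5 of 17 bZIP genes, 1 of 7 SRF-related genes and 9 of 19 AP-1 targets. MAP3K1, a kinase at the head of the JNK cascade, rose 1.51-fold from 18.9 ± 0.860 to 28.8 ± 0.936 CPM. MAP2K4, the kinase gene directly above JNK, fell 1.40-fold from 81.7 ± 3.20 to 58.3 ± 2.37 CPM (SD, n = 3; edgeR adjusted p = 1.0e-05). RPS6KA4 and RPS6KA5, which encode the kinases MSK2 and MSK1 that phosphorylate histone H3 at immediate early genes, fell 1.37-fold and 1.40-fold.

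SRF and its partners had 3 of 7 tested genes higher, 2 lower and 2 not past the threshold (71.4% called, beside 53.8% of all), with a median log2 fold change of 0.12. SRF fell 1.18-fold from 66.6 ± 2.25 to 56.2 ± 2.16 CPM (edgeR adjusted p = 0.0017), a call lost on log2(FPKM + 1) with a limma adjusted p of 0.076 (range 4.5e-05 to 0.076 over its alternatives). ELK1, a ternary complex factor, fell 1.32-fold, whereas ELK3, a ternary complex factor that can repress, rose 1.40-fold. FHL2, a LIM-domain cofactor that binds SRF and JUN, rose 2.05-fold from 55.3 ± 5.14 to 113 ± 1.60 CPM (edgeR adjusted p = 7.4e-08).

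Genes known as AP-1 targets in carcinoma cells also went both ways, with 8 of 19 tested genes higher, 7 lower and 4 not past the threshold (78.9% called, beside 53.8% of all) and a median log2 fold change of 0.02. PLAU, the urokinase gene, had 60.3, 65.6 and 61.9 CPM in parental replicates 1, 2 and 3 against 143, 145 and 137 CPM in resistant replicates 1, 2 and 3. It was 2.26-fold higher with no overlap (edgeR adjusted p = 3.5e-09). SPP1, the osteopontin gene, rose 5.39-fold from 2.44 ± 0.164 to 13.2 ± 0.888 CPM, and CXCL8, the interleukin 8 gene, rose 2.64-fold from 3.71 ± 0.443 to 9.80 ± 1.35 CPM (SD, n = 3). CD44, a hyaluronan receptor gene, fell 1.77-fold from 735 ± 19.3 to 415 ± 7.14 CPM (edgeR adjusted p = 1.7e-08).

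The collagenase genes MMP1 and MMP13, classical AP-1 targets, were named after their values were seen. MMP10, MMP7, MMP9, MMP3 and IL6, given below for their few counts, were not picked by smallest adjusted p either. MMP1 had 1, 1 and 0 counts in parental replicates 1, 2 and 3 against 20, 14 and 15 in resistant replicates 1, 2 and 3. Its ratio was 23.6, with a 95% exact binomial interval of 6.18 to 200 that covers counting error only. MMP13 had 5, 1 and 1 counts in parental replicates 1, 2 and 3 against 31, 37 and 40 in resistant replicates 1, 2 and 3, a ratio of 14.8 (6.96 to 37.8). Its fitted log2 fold change was 3.82, and 4.92 without parental replicate 1, the library with 5 of the 7 parental counts. The stromelysin gene MMP10 had no count in the parental and 15 in the resistant libraries. Its ratio had a lower 95% limit of 3.45, and was 4.81 against a floor of 3 counts over the parental group. The other sparse targets showed no such difference beyond counting error. MMP7 had 14 and 21 counts in the parental and resistant groups (ratio 1.44, 0.700 to 3.07) and MMP9 had 8 and 12 (1.44, 0.542 to 4.07). The stromelysin gene MMP3, with 0 and 3 counts, and the cytokine gene IL6, with 0 and 4, had ratios with lower limits of 0.397 and 0.635. All of these were rare transcripts, at under 2 CPM in every library.

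The largest falls among the targets, also named after their values were seen, were the EGF family ligand genes AREG and EREG. AREG had 136, 189 and 152 CPM in parental replicates 1, 2 and 3 against 38.1, 17.5 and 15.3 CPM in resistant replicates 1, 2 and 3 (edgeR adjusted p = 0.0057). Resistant replicate 1 lay well above its group, and the groups did not overlap. EREG fell 4.96-fold from 821 ± 109 to 166 ± 21.0 CPM (SD, n = 3; edgeR adjusted p = 2.0e-05).

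**Figure D5:**
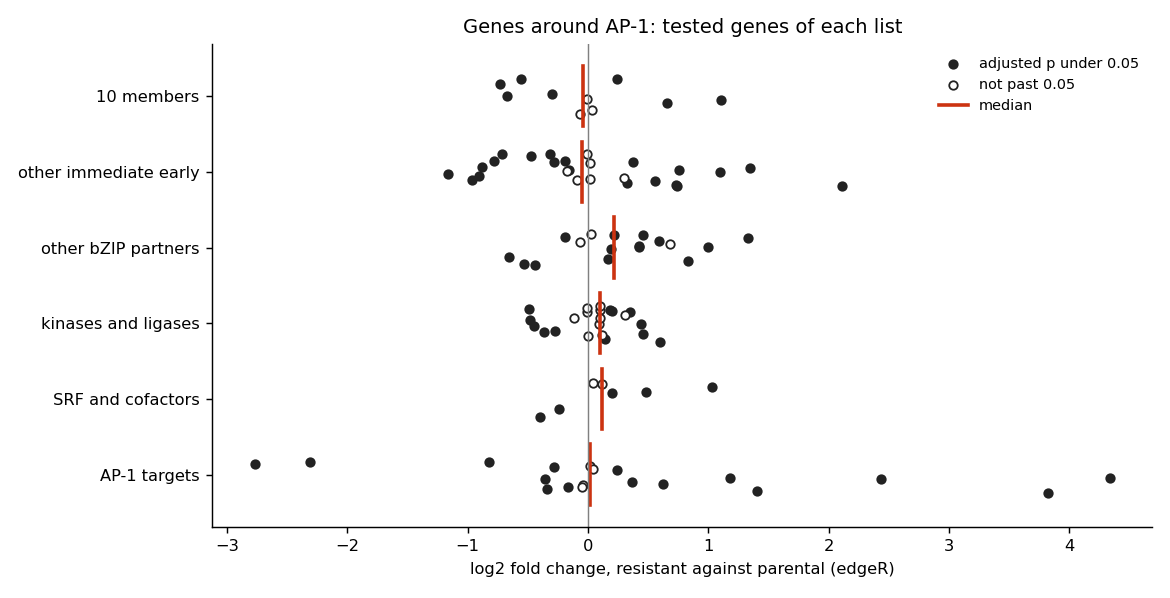
Each point is a tested gene of the 10 members or of 1 of the 5 lists, placed on the horizontal axis by its edgeR log2 fold change (resistant against parental), filled where the adjusted p was under 0.05; vertical position within a row has no meaning and the red line is the median. The medians lie between -0.05 and 0.21, and the points furthest right are MMP1 and MMP13, which had 2 and 7 parental counts in all.

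By the size of the difference between library profiles, the genes most like JUN were KLF12, FHL1 and ALDH2. The measure was the root mean square difference of log2 CPM, each centred on its mean over the 6 libraries, among 11623 genes with a mean of at least 5 CPM. It was 0.021, 0.034 and 0.036 for these 3 genes, beside a spread of 0.55 for JUN itself. On average KLF12 went from 14.2 CPM in parental to 31.4 CPM in resistant libraries, FHL1 from 23.4 to 50.7 CPM and ALDH2 from 32.3 to 69.5 CPM. With 6 libraries in 2 groups this measure mostly picks genes with the same difference between the groups.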

How the data were processed

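The first table deposited by the authors holds a raw whole-number read count for each gene and library. A second table deposited by the authors was taken as FPKM, an inference from the values, since its header names no unit. Per the labels' protocols, total RNA went into a SMARTER mRNA-Seq library kit. Not given in the sources used here are the aligner, the counter, the annotation release and the strand setting, so reads from antisense partners cannot be told apart. The labels name mouse builds, the identifiers are human, and no coordinates or sequences are reported.

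Groups and replicate numbers came from sample titles, and columns were matched through sample descriptions. Tests on counts used edgeR 4.0.16 under R 4.3.3 (TMM, filterByExpr, robust quasi-likelihood fit, two-sided, Benjamini-Hochberg over all tested genes, threshold 0.05). The 840 rows without a gene identifier stayed in the table. The SE is the log2 fold change divided by the square root of F. FPKM were tested with limma 3.58.1 on log2(FPKM + 1) and log2(FPKM + 0.1), and DESeq2 1.42.0 was an alternative on the counts. The code was tested on simulated data. With 3 against 3 libraries an exact permutation test cannot go below a two-sided p of 0.1, so none was made.

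The members and lists were chosen with earlier results of these data known. All 10 members were named, with up to 4 genes of each list by smallest adjusted p and the 3 genes closest in profile to the member with the smallest adjusted p. Genes outside that rule are marked in the text.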

Additional observations from a re-analysis of the deposited data

How the results depend on the processing

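Of the 10 genes 7 kept their direction and call in all 14 alternatives, with log2 fold changes of 1.07 to 1.20 for JUN and -0.77 to -0.64 for IER3. The rest changed sign somewhere. FOSB had a log2 fold change of -0.0056 without parental replicate 2 and ranged from -0.056 to 0.081 with 1 library left out. JUND had 0.024 with library sizes alone and ranged from -0.20 to 0.046 with 1 library left out. IER2 had 0.087 with library sizes alone, 5.9e-04 with at least 1 CPM in 3 libraries, 0.066 and 0.067 on log2 of FPKM plus 1 and plus 0.1, and -0.055 to 0.017 with 1 library left out. The cause of these changes was not tested. Of 32 other genes named, 30 kept call and direction in every alternative run, the exceptions being SRF and EGR3 on FPKM. The number of genes of the 5 lists that were lower went from 29 to 19 with limma on FPKM and either pseudocount, which changes both the table and the test; calls over all genes also went from 8933 to 6885, with 59.7% of them higher in place of 50.8%, on log2(FPKM + 1). On CPM in place of FPKM, which leaves out gene length, the FOS family share was 58.2% in the parental form. The FOSL1 share was then 75.3% and 73.6%, that of FOSL2 16.2% and 21.1%, that of FOS 6.57% and 3.72% and that of FOSB 1.90% and 1.60% in the parental and resistant forms. For the JUN family the CPM shares in these forms were 18.2% and 35.6% for JUN, 50.1% and 37.0% for JUNB, and 31.6% and 27.4% for JUND. FOSL1 was thus a slightly smaller share in the resistant form on CPM and a slightly larger one on FPKM.

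Whether replicate numbers pair the libraries cannot be told from these values. The correlation of deviations was 0.049 to 0.21 for same-numbered libraries and -0.16 to 0.10 for libraries of different number. Of the 6 libraries 4 correlated best with their own number. With a replicate block 9973 genes passed in place of 8933, and the 10 genes kept the counts of 3 higher and 4 lower. Counts were deep for most of the 10 genes, and depth limits FOSB among them. Of the genes named from the 5 lists, EGR2, EGR3, EGR4, SGK1, SPP1, CXCL8, IL6 and the MMP genes also had under 146 counts in at least 1 library.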
